A study of Homo sapiens and synthetic construct with 52 samples.

Results

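The pro-apoptotic members of the BCL2 family were followed through genome-wide CRISPRi screens in K562 cells. CRISPRi represses a gene by bringing a catalytically dead Cas9 fused to the KRAB repressor (dCas9-KRAB) to its transcription start site with an sgRNA. The members were BAX, BAK1, BCL2L11, BID, BBC3, PMAIP1, BAD, BIK, HRK and BMF, and their guides were all rows of the CRISPRi count files whose gene symbol, the first part of the guide name, is 1 of these 10. This gave 55 of the 103074 guides and 10 of the 18788 genes of the library, which also holds 1895 non-targeting guides. Every gene had 5 guides at 1 start site, except BCL2L11, which had 5 guides at each of 2 start sites that the guide names call P1 and P2.

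These proteins carry out the mitochondrial route of apoptosis. BAX and BAK1 are the effectors that form pores in the outer mitochondrial membrane and let cytochrome c escape, and the pro-survival relatives BCL2, BCL2L1 and MCL1 hold them back. The BH3-only proteins tip this balance: BCL2L11 (BIM), BID and BBC3 (PUMA) can activate BAX and BAK1 directly, while PMAIP1 (NOXA), BAD, BIK, HRK and BMF mainly occupy the pro-survival proteins. In cells driven by BCR-ABL1, signals from this kinase keep BIM low through phosphorylation and through the forkhead transcription factor FOXO3, and inhibitors of the kinase are known to release it.

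K562 is a line from chronic myeloid leukaemia that carries BCR-ABL1, and dasatinib is a tyrosine kinase inhibitor of BCR-ABL1 and SRC family kinases. All samples other than the plasmid pools came from a sorted pool of K562 cells that express dCas9-KRAB. In the dasatinib screens, run at 100-fold coverage with the optimised LGR library and with the legacy library of the same guides, 2 samples received 0.75 nM dasatinib, 2 received 0.01% DMSO as vehicle, both for 72 h followed by 6 days of recovery, and 2 samples (T0) were taken before treatment. The survival screens used the LGR library without drug and had 4 samples at the end (Tf) and 2 at the start (T0) at 100-fold coverage, and 3 Tf samples and 1 T0 sample at 1000-fold coverage, 7 days apart. With a single T0 library, the spread of start samples at 1000-fold coverage was not measured, and the edgeR test there assumes that it equals the spread among Tf samples. Each library of the dasatinib screens was transduced once and then split, so the spread between its samples, and every p-value that rests on it, is technical. The paper also calls replicates of the 100-fold survival screen technical. Whether the survival samples were transduced separately is not known here, so their p-values are not taken to measure biological spread.

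The files hold raw sgRNA counts. Their totals were 16051155 to 19844033 per sample in the LGR dasatinib screen, 15739255 to 18526437 in the legacy one, 47678549 to 54678272 at 100-fold and 105684438 to 111002750 at 1000-fold coverage. Agreement between the 2 dasatinib samples was the lowest in these screens, with a Pearson r of log2 counts across guides of 0.73 in the LGR and 0.84 in the legacy library, against 0.90 and 0.93 between DMSO samples. Guide levels spread more widely in the legacy library, which raises such an r, so these values do not rank the libraries. Levels are given as CPM, the counts of a guide scaled to the total of its sample. The gene phenotype is the mean over the 3 guides of largest absolute value of the log2 ratio of a sample to the mean of the samples it is compared with, minus the median of the non-targeting guides. A gene was called where this phenotype, scaled by non-targeting pseudo-genes and multiplied by the negative log10 of an exact two-sided Mann-Whitney p, passed an estimated false discovery rate of 0.05. The Mann-Whitney test sets the guides of a gene, averaged over samples, against the non-targeting guides. Its units are guides, so the spread between samples does not enter its p.

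The guides of each start site lie close together. On hg19, the build named in the processing notes, the guide coordinates spanned chr2:111878528-111878923 for BCL2L11 P1 and chr2:111880243-111880656 for P2, chr19:49458192-49458505 for BAX and chr19:47734011-47734401 for BBC3. PMAIP1 was targeted at chr18:57567246-57567676, BAK1 at chr6:33547604-33548020, BID at chr22:18256721-18257200 and BAD at chr11:64051936-64052144. The windows of BIK at chr22:43506765-43507172, HRK at chr12:117318612-117318905 and BMF at chr15:40400623-40401064 complete the set. The only other gene with guides within 1 kb of a member guide was GPR137, 172 bp from the nearest BAD guide.

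The RefSeq start-site windows of the 3 genes called in both dasatinib comparisons are shown as annotated start sites, which need not be those that the guides target. They run 5′ to 3′ from 250 bases before to 50 bases after the annotated start, on GRCh38.p14, and are not set against the guide positions, which are on hg19. Capitals mark matches on either strand to the forkhead core GTAAACA, the E-box CACGTG, the CCAAT box CCAAT and the GC box GGGCGG.
BCL2L11, chr2:111120664-111120963, plus strand: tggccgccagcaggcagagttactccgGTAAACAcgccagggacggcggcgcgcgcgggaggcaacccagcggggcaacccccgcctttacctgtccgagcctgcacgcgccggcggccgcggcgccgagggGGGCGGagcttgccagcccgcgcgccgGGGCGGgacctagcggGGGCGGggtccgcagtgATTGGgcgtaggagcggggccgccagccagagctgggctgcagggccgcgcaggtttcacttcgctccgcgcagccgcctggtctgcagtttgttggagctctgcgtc
BAX, chr19:48954625-48954924, plus strand: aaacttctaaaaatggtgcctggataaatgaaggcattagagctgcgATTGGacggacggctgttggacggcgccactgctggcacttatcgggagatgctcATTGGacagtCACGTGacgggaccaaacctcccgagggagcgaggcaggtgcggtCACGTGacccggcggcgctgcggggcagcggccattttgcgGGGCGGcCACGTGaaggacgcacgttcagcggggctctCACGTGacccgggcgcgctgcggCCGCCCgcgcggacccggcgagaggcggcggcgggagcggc
BBC3, chr19:47232618-47232917, minus strand: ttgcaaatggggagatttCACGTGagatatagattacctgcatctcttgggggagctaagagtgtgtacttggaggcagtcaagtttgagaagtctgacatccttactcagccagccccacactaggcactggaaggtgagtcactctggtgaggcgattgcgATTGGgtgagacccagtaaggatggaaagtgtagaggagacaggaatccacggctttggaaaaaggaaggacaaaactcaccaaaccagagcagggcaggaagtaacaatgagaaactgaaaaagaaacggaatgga
The BCL2L11 window holds 1 forkhead core, 1 CCAAT box and 3 GC boxes. The BAX window holds 4 E-boxes, 2 CCAAT boxes and 2 GC boxes, and the BBC3 window 1 E-box and 1 CCAAT box. Among all 35116 windows of the table, 3.42% hold a forkhead core, 7.26% an E-box, 34.6% a CCAAT box and 45.0% a GC box. The table has 15 windows for 9 of the 10 members. Of these, 1 holds a forkhead core, that of BCL2L11, 4 an E-box, 7 a CCAAT box and 12 a GC box. A single forkhead match in 15 windows cannot be told from the share over all windows. A match describes the letters and does not show that a factor binds there. For BAX and BBC3, both on chr19, the guide and window coordinates lie at unlike offsets. The BBC3 window may therefore not be the start site that its guides target.

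Every member guide was present in both plasmid pools. In the LGR plasmid the 55 guides lay between 6.82 and 15.4 CPM, a 2.27-fold range, against 1.89 to 20.3 CPM, a 10.8-fold range, in the legacy plasmid, which was sequenced on another instrument. The rarest legacy guides were the BCL2L11 P2 guide at 111880656 and the HRK guides at 117318814 (1.99 CPM) and 117318905 (2.73 CPM). In the transduction titration, which sampled cells at 10-fold to 200-fold coverage, no member guide fell to 0 in any of the 8 LGR samples, and 2 were at 0 in the first of 2 legacy samples at 10-fold coverage. These were the BBC3 guide at 47734372 and the BCL2L11 P2 guide at 111880656, which had 57 and 50 counts in the other sample at that coverage. A count of 0 does not show that the guide was lost from the cells.

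Under dasatinib, guides at BCL2L11 P1 and against BAX and BBC3 summed to 2.58 to 4.79 times their level under DMSO in both libraries, while the sums at BCL2L11 P2 were 1.17 times in the LGR and 1.15 times in the legacy library. The LGR screen called 4 of the 10 members higher and none lower, where 1.35% of all genes were called higher and 0.738% lower. The legacy screen called 3 of 10 higher and none lower, against 1.15% and 0.667% of all genes. BCL2L11, BAX and BBC3 were called in both, and PMAIP1 passed in the LGR screen. The median phenotype of the 10 members was 0.97 in the LGR and 0.86 in the legacy screen on the log2 scale, while the medians over all genes were 0.03 and -0.01.

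BCL2L11, which encodes BIM, had the highest values of the family, and at P1. Summed over its 5 P1 guides, the level was 241 and 214 CPM in the 2 LGR dasatinib samples, 48.4 and 46.7 CPM in the DMSO samples and 55.9 and 58.6 CPM at T0. In the legacy library it was 198 and 221 CPM under dasatinib, 62.9 and 55.4 CPM under DMSO and 63.5 and 64.2 CPM at T0. Both dasatinib samples stood far above all 4 other samples of their library. The gene phenotype was 2.75 ± 0.05 in the LGR (exact Mann-Whitney p = 9.51e-12, Benjamini-Hochberg adjusted 1.26e-08) and 2.04 ± 0.04 in the legacy screen (p = 4.99e-10, adjusted 4.88e-07; SD, n = 2 dasatinib samples each). These values ranked it 69th of 18561 genes in the LGR screen and 126th of 18581 in the legacy screen, counted from the highest phenotype. In the LGR library the P1 guide at 111878913 reached the mean of 50 counts that the gene score requires only through the dasatinib samples. It had 145 and 102 counts under dasatinib against 23 and 38 under DMSO.

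All 5 P1 guides had edgeR log2 fold changes of at least 1.73 in each library, and 1 of them in the LGR and 4 in the legacy library passed the test. The guide at 111878923 had 58.1 and 55.8 CPM under dasatinib, against 7.23 and 7.81 CPM under DMSO, in the LGR library, a log2 fold change of 3.07 ± 0.41 (SE, edgeR adjusted p = 0.0401). In the legacy library it had 35.0 and 27.5 CPM under dasatinib against 12.2 and 7.50 CPM under DMSO, a log2 fold change of 1.79 ± 0.33 (edgeR adjusted p = 0.0497). The other legacy guides that passed were those at 111878916 (2.21), 111878528 (2.06) and 111878832 (1.73). The difference between the libraries for the guide at 111878923 was 1.25 ± 0.48 (LGR minus legacy, SE), which did not pass edgeR's threshold after adjustment (adjusted p = 0.418). The P1 and P2 windows do not overlap.

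At P2 the LGR sums were 76.6 and 68.7 CPM under dasatinib against 59.99 and 63.8 CPM under DMSO. The legacy sums were 84.0 and 39.5 CPM under dasatinib, on both sides of the 57.8 and 49.1 CPM under DMSO. The P2 phenotype was 0.60 ± 0.04 in the LGR and -0.33 ± 0.44 in the legacy screen and passed the threshold in neither (exact Mann-Whitney p = 0.0788 and 0.879). The 5 P2 guides ranged from 0.14 to 0.92 in the LGR and from -0.88 to 1.02 in the legacy library on the log2 scale, and no P2 guide reached the lowest of the P1 guides.

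Guides against BAX, one of the pore-forming effectors, rose in both screens. The sum of its 5 guides was 158 and 195 CPM under dasatinib, 62.0 and 66.0 CPM under DMSO and 57.6 and 57.6 CPM at T0 in the LGR library. In the legacy library the sum was 128 and 133 CPM under dasatinib, 53.2 and 44.7 CPM under DMSO and 47.8 and 42.5 CPM at T0. No dasatinib sample overlapped the others. The phenotype was 1.81 ± 0.26 in the LGR (exact Mann-Whitney p = 1.01e-06, adjusted 0.000331) and 1.94 ± 0.08 in the legacy screen (p = 0.00898, adjusted 0.254; SD, n = 2 each), so that the legacy value passed the pseudo-gene threshold but not the Benjamini-Hochberg one. The legacy value missed the pseudo-gene threshold without the first dasatinib sample (1.996) and without the second DMSO sample (1.78). It also missed it as the mean of all guides (1.21) and with no non-targeting median subtracted (1.81).

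The 5 BAX guides ranged from 0.90 to 2.10 in the LGR and from -0.13 to 2.11 in the legacy library on the log2 scale. The guides at 49458192, 49458268 and 49458332 passed the edgeR test in the legacy library, with log2 fold changes of 2.11, 1.76 and 1.91 (adjusted p = 0.0160, 0.0388 and 0.0223). The guides at 49458323 and 49458505 had 1.32 and 0.90 in the LGR library and 0.44 and -0.13 in the legacy library. The difference between libraries passed the edgeR threshold for none of the 5.

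BAK1, the other effector, was not called in either screen. Its guides summed to 70.2 and 82.9 CPM under dasatinib against 72.4 and 71.5 CPM under DMSO in the LGR library, and to 101 and 91.2 CPM against 86.3 and 90.002 CPM in the legacy library. The LGR samples overlapped and the legacy ones were narrowly apart. The phenotypes were 0.32 ± 0.07 and 0.29 ± 0.38 (exact Mann-Whitney p = 0.342 and 0.316).

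Guides against BBC3, which encodes the activator PUMA, rose in both screens. Its guides summed to 188 and 153 CPM under dasatinib, 65.6 and 63.3 CPM under DMSO and 55.2 and 54.8 CPM at T0 in the LGR library. In the legacy library they summed to 117 and 113 CPM under dasatinib, 48.6 and 40.6 CPM under DMSO and 39.7 and 47.6 CPM at T0. The dasatinib samples again did not overlap any other sample. The phenotype was 1.91 ± 0.14 in the LGR (exact Mann-Whitney p = 0.00219, adjusted 0.1204) and 1.75 ± 0.15 in the legacy screen (p = 1.30e-05, adjusted 0.00257), so here the LGR value missed the Benjamini-Hochberg threshold. Without the second LGR dasatinib sample the phenotype was 2.01 and missed the pseudo-gene threshold.

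Single BBC3 guides differed more. The guide at 47734383 had 42.9 and 52.4 CPM under dasatinib, against 8.61 and 10.8 CPM under DMSO, in the LGR library, and 57.7 and 41.7 CPM, against 12.7 and 10.4 CPM, in the legacy one. It passed the edgeR test in the legacy library (log2 fold change 2.23 ± 0.29, adjusted p = 0.0114) and had an adjusted p of 0.0780 in the LGR library. The guide at 47734192 had a log2 fold change of 0.07 ± 0.48 in the LGR and 1.36 ± 0.35 in the legacy library (SE). The guide at 47734372 had the highest level of any member guide in a dasatinib sample, 89.4 CPM in the first LGR sample against 48.5 CPM in the second.

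PMAIP1, which encodes NOXA, the BH3-only partner of MCL1, was called in the LGR and not in the legacy screen, a difference that was not tested for the gene. Its sums were 63.2 and 95.7 CPM under dasatinib against 48.0 and 38.8 CPM under DMSO in the LGR library. In the legacy library they were 58.0 and 63.9 CPM under dasatinib against 41.8 and 41.0 CPM under DMSO. Both dasatinib samples were above both DMSO samples in each library. The phenotype was 1.30 ± 0.40 in the LGR (exact Mann-Whitney p = 0.000733, adjusted 0.0597) and 1.08 ± 0.11 in the legacy screen (p = 0.0341, adjusted 0.448). Without the second LGR dasatinib sample it was 1.02, and without the second DMSO sample 1.08, and both missed the threshold, as did the value with no non-targeting median subtracted (1.12).

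BMF, a BH3-only protein held at dynein light chain 2, had positive phenotypes that were not called. They were 0.90 ± 0.30 in the LGR and 0.82 ± 0.33 in the legacy screen (exact Mann-Whitney p = 0.0236 and 0.00128). Its sums were 89.8 and 89.2 CPM under dasatinib against 69.1 and 59.1 CPM under DMSO in the LGR library, and 104 and 78.7 CPM against 56.0 and 63.7 CPM in the legacy library. The groups did not overlap in either library, with ratios of means of 1.40 and 1.53.

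HRK (harakiri) had a phenotype of 1.04 ± 0.41 in the LGR and 0.15 ± 0.04 in the legacy screen, neither of them called (exact Mann-Whitney p = 0.0429 and 0.460). Its guides summed to 46.5 and 79.3 CPM under dasatinib against 45.7 and 58.1 CPM under DMSO in the LGR library, and to 13.8 and 18.5 CPM against 18.3 and 20.3 CPM in the legacy library, where they were rare. The sums overlapped in both. One HRK guide, at 117318612, had log2 fold changes of 1.57 ± 0.49 in the LGR and 1.52 ± 0.90 in the legacy library, and its level under dasatinib was near that at T0: 7.35 and 5.24 CPM under dasatinib, 2.05 and 2.66 CPM under DMSO and 6.90 and 5.23 CPM at T0 in the LGR library. Its legacy levels were 4.32 and 4.997 CPM under dasatinib, 0.23 and 3.31 CPM under DMSO and 6.32 and 4.82 CPM at T0, so that the DMSO samples were the low ones in both libraries. This guide reached the mean of 50 counts that the gene score requires only through the dasatinib samples, in both libraries. The same holds for the legacy guide at 117318905 (16 and 95 counts under dasatinib, 43 and 38 under DMSO). The HRK phenotypes and their p-values therefore include guides admitted through the group where their mean was higher.

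BID, the BH3-only protein cut by caspase-8, BAD, which survival kinases phosphorylate, and BIK, which sits at the endoplasmic reticulum, were not called. BID had a phenotype of -0.02 ± 0.26 in the LGR and 0.58 ± 0.51 in the legacy screen. BAD had 0.21 ± 0.29 and 0.43 ± 0.05. BIK had 0.04 ± 0.09 in the LGR and 0.89 ± 0.12 in the legacy screen (exact Mann-Whitney p = 0.757 and 0.00474), with sums of 60.9 and 64.3 CPM under dasatinib against 38.2 and 53.4 CPM under DMSO in the legacy library. The legacy BIK guide at 43506765 reached the count minimum of the gene score only through the dasatinib samples (56 and 56 counts, against 26 and 51 under DMSO). For the BIK guides the difference between libraries was negative in all 5, from -0.36 to -0.90 (LGR minus legacy, log2), and passed the edgeR threshold in none.

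Taken guide by guide with edgeR, 1 of 55 member guides rose in the LGR library, where 0.0954% of all guides rose, and 8 of 55 in the legacy library, where 0.572% did. The LGR guide was at BCL2L11 P1, and the legacy guides were 4 at BCL2L11 P1, 3 of BAX and 1 of BBC3. At an unadjusted p below 0.05, 18 LGR and 20 legacy member guides were higher and none were lower, where 7.40% and 8.24% of all guides were higher. DESeq2 called 12 member guides higher in each library, beside 1.71% of all guides in the LGR and 2.04% in the legacy library. These counts rest on 2 samples a group. Without the first dasatinib sample edgeR called 22 member guides higher in the LGR library, beside 12.0% of all guides, and without the second 19, beside 11.7%, with 1 lower. In the legacy library it called 19 higher without the first, beside 9.71%, and 21 without the second, beside 9.47%, with 1 and 2 lower. Without either DMSO sample it called no member guide in either library. Against the spread of the non-targeting guides, 16 of 55 member guides in the LGR and 15 of 55 in the legacy library lay above the 95th percentile, where 5.38% and 6.64% of all targeting guides did. A guide enters this last count if its mean reaches the minimum in either group, so some enter only through the dasatinib samples.

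The same guides can be set side by side, since both libraries carry them and share no sample. Of the 55, 40 had a positive log2 fold change in both libraries and 12 were above 1 in both. Those 12 were all 5 guides of BCL2L11 P1, 3 of BAX, 2 of BBC3 and 1 each of PMAIP1 and HRK. For comparison, 28.7% of 97807 targeting and 26.9% of 1862 non-targeting guides were positive in both, and 2.30% and 1.18% were above 1 in both. Across the 55 guides Pearson's r between libraries was 0.64 and Spearman's rho 0.50, against r = 0.24 over all targeting and 0.09 over non-targeting guides. These are descriptions across guides that share target genes and sequences, not across replicates. No member guide differed between the libraries in edgeR's test of the difference, where 0.00293% of all guides did, and at an unadjusted p below 0.05 there were 5 member guides.

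Set against T0 in place of DMSO, a comparison added after the data were seen, dasatinib gave phenotypes of 2.44 ± 0.07 in the LGR and 2.09 ± 0.12 in the legacy screen for BCL2L11. BAX had 2.05 ± 0.23 and 1.85 ± 0.09, and BBC3 2.07 ± 0.16 and 1.76 ± 0.15. These 3 genes were called in both libraries, where 0.421% of LGR and 0.581% of legacy genes were called higher. PMAIP1 was called in neither (1.05 ± 0.36 and 0.74 ± 0.12), and BMF was called in the legacy library (0.91 ± 0.03) and not in the LGR one (0.89 ± 0.28). This comparison shares its dasatinib samples with the one against DMSO and also spans the days in culture.

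Guides against some pro-survival relatives moved the other way. Of the 6 genes BCL2, BCL2L1, MCL1, BCL2L2, BCL2A1 and BCL2L10, 2 were called lower under dasatinib in both libraries and none higher, with median phenotypes of -0.04 in the LGR and -0.64 in the legacy screen. Among all genes, 0.738% were called lower and 1.35% higher in the LGR screen, and 0.667% and 1.15% in the legacy screen. BCL2L1, which encodes BCL-XL, had a phenotype of -4.14 ± 0.04 in the LGR and -4.78 ± 0.75 in the legacy screen. MCL1 had -4.50 ± 0.71 and -4.56 ± 0.10. Of 11 genes of the apoptosome and the caspases, from APAF1 and CASP9 to the inhibitor XIAP, none was called in either direction in any of the 6 comparisons, and their median phenotypes under dasatinib were 0.24 in the LGR and 0.21 in the legacy screen. In the 4 growth comparisons 9.43% to 11.6% of all genes were called lower. At these shares, and those under dasatinib, 0 of 11 does not set these genes apart from all genes.

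Without drug, no member was called in any of the 4 growth comparisons. Only BIK in the legacy DMSO comparison came past the threshold when the second DMSO sample was left out (-0.89, against -0.49 ± 0.56 with both samples). Among all genes, 10.3% were lower and 0.0266% higher at Tf against T0 at 100-fold coverage, and 11.6% and 0.0692% at 1000-fold. For DMSO against T0 the shares were 9.77% lower and 0.0373% higher in the LGR and 9.43% and 0.064% in the legacy screen. The median phenotype of the members was -0.12 at 100-fold and 0.01 at 1000-fold coverage, 0.09 in the LGR and 0.01 in the legacy DMSO comparison, beside -0.11, -0.05, -0.11 and -0.12 over all genes. In the legacy DMSO comparison BCL2L11 entered this median through P2, the start site of lowest p there, and through P1 in the others; with P1 the legacy median was -0.15. The pro-survival BCL2L1 was lower in 3 of these 4 comparisons, by 0.55 to 0.80 on the log2 scale, and was not called at 100-fold coverage (-0.49 ± 0.14).

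BCL2L11 P1 was the lowest member start site in 3 of the 4 growth comparisons. Its phenotype was -0.47 ± 0.25 at 100-fold (SD, n = 4), -0.31 ± 0.11 at 1000-fold (n = 3), -0.94 ± 0.19 in the LGR and -0.36 ± 0.07 in the legacy DMSO comparison (n = 2 each), with every sample below 0. None passed the threshold (exact Mann-Whitney p = 0.320, 0.438, 0.0186 and 0.409, in that order). Of its 5 guides, 2 had positive values at 100-fold and 2 at 1000-fold coverage, and 0 in the LGR DMSO comparison. Outside BCL2L11 the means beyond 0.5 in size were those of BID (-0.53 ± 0.18) and HRK (-0.65 ± 0.86) in the legacy DMSO comparison. Of the 5 BCL2L11 P1 guides, 1 passed a test of its own. The guide at 111878913 had 4.03, 2.86 and 4.34 CPM at Tf against 6.93 CPM at T0 at 1000-fold coverage, and 2.44, 2.54, 4.71 and 3.51 CPM at Tf against 5.85 and 7.82 CPM at T0 at 100-fold. In the LGR dasatinib screen it had 1.39 and 2.20 CPM under DMSO against 6.40 and 7.57 CPM at T0, and in the legacy screen 3.49 and 4.76 CPM against 8.47 and 8.29 CPM. It was lower in every Tf and DMSO sample than in any T0 sample of its screen.

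This guide passed the edgeR test at 1000-fold, against 1 T0 sample (log2 fold change -0.94 ± 0.19, adjusted p = 0.000194), in the LGR (-1.96 ± 0.39, 0.000705) and in the legacy DMSO comparison (-1.03 ± 0.31, 0.0324), and missed it at 100-fold (-1.07 ± 0.37, adjusted p = 0.134). None of the other 4 P1 guides passed in any growth comparison. Under dasatinib the same guide had 9.03 and 6.28 CPM in the LGR library, near its T0 level, and 17.5 and 10.9 CPM in the legacy library, and its log2 fold changes against DMSO were 2.24 and 1.91.

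The edgeR test called few other member guides in the growth comparisons. At 1000-fold coverage, against the single T0 sample, it called 1 lower and 1 higher of 55, where 9.07% of all guides were lower and 1.08% higher, the higher one being the HRK guide at 117318905 (0.42 ± 0.12, adjusted p = 0.0156). At 100-fold it called none, beside 5.68% and 0.0437% of all guides, with 1 member guide lower and 1 higher at an unadjusted p below 0.05. In the LGR DMSO comparison it called 2 lower, beside 7.42% lower and 0.535% higher of all guides, the second being the HRK guide at 117318612 (-1.37 ± 0.38, adjusted p = 0.0188). The legacy DMSO comparison had 1 lower, beside 6.88% lower and 0.62% higher of all guides, and the HRK guide at 117318612 missed the threshold there (-1.66 ± 0.55, adjusted p = 0.0658). Leaving out 1 sample at a time gave 0 to 7 member guides in the LGR DMSO comparison, the most without the first DMSO sample, where 13.5% of all guides were called, and 0 to 5 in the legacy one, the most without the second DMSO sample, where 10.9% were called.

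Tests of the difference in growth effect between coverages or libraries called almost no guide of any kind, so they cannot show that the member guides behaved alike. The edgeR test of the difference between 100-fold and 1000-fold coverage called 0.0% of all guides, and none of the members had an unadjusted p below 0.05. Between the LGR and legacy DMSO comparisons it called 0.144% of all guides and no member guide, and 4 member guides had an unadjusted p below 0.05. The phenotypes of BAX were positive at both coverages, 0.31 ± 0.13 at 100-fold and 0.07 ± 0.08 at 1000-fold, and were not called.

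The guides of GPR137 nearest to BAD, 5 at its P1 start site, had log2 fold changes of -0.05 to 0.45 in the LGR and -0.56 to 0.40 in the legacy DMSO comparison, and none passed the edgeR test there. The 5 guides at its P2 start site ranged from -2.46 to 0.008 in the LGR DMSO comparison, with 1 past the test. In the legacy one they ranged from -1.81 to 0.20, with 0 past it. As a gene, GPR137 was called lower in the LGR DMSO comparison (-1.17 ± 0.20) and not in the legacy one (-1.06 ± 0.01). BAD itself had phenotypes of -0.19 ± 0.14 and 0.08 ± 0.18. Whether BAD guides also act on the GPR137 start site was not tested.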

How the data were processed

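The authors converted the sequencing runs with bcl2fastq and counted sgRNAs with a version of ScreenProcessing; hg19 and bcl2fastq are in the submitters' processing notes, without version numbers. The deposited values are raw counts per sgRNA, with no normalization. Count files of 40 samples were used; pilot pools, CRISPRa plasmids and 1 plasmid file with unnamed rows were not used here. Guides were tested in R 4.3.3 with edgeR 4.0.16 (quasi-likelihood, TMM, at least 10 counts in 1 or more samples, two-sided, Benjamini-Hochberg 0.05 over all guides). Gene phenotypes followed the ScreenProcessing scheme in Python 3.11.15 with scipy 1.17.1: guides with a mean of at least 50 counts in either group, a count of 0 set to 1, the 3 strongest guides averaged, the start site of lowest p taken, and pseudo-genes of 5 non-targeting guides setting the threshold. DESeq2 1.42.0 was an alternative. Further alternatives were other scalings and count filters, a replicate block, 1 fit per library, the mean of all guides, Benjamini-Hochberg gene calls and leaving out each sample. Depth was 15739255 counts or more per sample. The edgeR test was tested on simulated data: at 101701 guides of the LGR dasatinib comparison it called 20% of guides changed by 2 and 0% of those changed by 1 on the log2 scale in either direction. All 10 members and every member guide past the edgeR threshold are named; values of genes in other lists are given where they passed under dasatinib, and neighbours within 1 kb are named. Members and lists were chosen with earlier results of these data known. Promoter windows are from RefSeq. A further list of relatives and regulators is not reported here.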

Additional observations from a re-analysis of the deposited data

Results flagged for a closer look

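In 3 cases every sample of the LGR comparison and every sample of the legacy comparison lay on opposite sides of 0, and the difference between these phenotypes was not tested. For BCL2L11 P2 under dasatinib the means were 0.599 in the LGR and -0.334 in the legacy screen, a difference of 0.933. For BCL2L11 P2 in DMSO against T0 they were -0.162 in the LGR and 0.283 in the legacy screen, a difference of -0.445. For BID in DMSO against T0 they were 0.154 in the LGR and -0.526 in the legacy screen, a difference of 0.680. All 6 phenotypes missed the gene threshold, with 2 samples in each. Guide by guide, the difference between the libraries passed edgeR's threshold for no member guide. The P2 guide at 111880656, the rarest member guide of the legacy plasmid at 1.89 CPM, did not reach the count minimum in the legacy DMSO comparison, so that the value of 0.283 rests on the other 4 P2 guides. In the legacy dasatinib comparison it reached the minimum only through the dasatinib samples (105 and 21 counts, against 18 and 55 under DMSO). Averaged over all 5 P2 guides, the dasatinib value was 0.43 in the LGR and -0.004 in the legacy screen. In the legacy library 3 of the 5 had positive edgeR log2 fold changes, so the sign there depends on which guides are averaged. No sample stood apart from its group for any of the 11 start sites in the 4 Tf samples at 100-fold coverage.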

How the results depend on the processing

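Gene calls kept within 1.5 times of their count in 48 of 51 alternatives. This rule counts as kept 0 calls that stay 0, as in most growth alternatives, and 3 calls that become 2. The 3 legacy dasatinib calls became BBC3 and BCL2L11 alone under Benjamini-Hochberg adjustment, with the mean of all guides and with no non-targeting median subtracted. The 4 LGR dasatinib calls became 2 (BAX and BCL2L11) under Benjamini-Hochberg adjustment and ranged from 2 to 4 when 1 sample was left out; the 3 legacy ones ranged from 2 to 3, and the legacy DMSO comparison from 0 to 1. BCL2L11 P1 stayed past the threshold under dasatinib in all alternatives run. Of 510 alternative gene phenotypes, 452 kept direction and call, 12 lost the call, 2 gained it and 44 changed sign, all of the last among values past the threshold in neither setting. Guide calls moved in 26 of 62 alternatives. At 100-fold coverage, 0 calls became 1 with DESeq2 and 1 with the replicate block. In LGR DMSO against T0, 2 calls became 0 with all samples in 1 fit and ranged from 0 to 7 with 1 sample left out. In legacy DMSO against T0, 1 call became 2 with DESeq2, 3 with library sizes from non-targeting guides and 0 with all samples in 1 fit, and ranged from 0 to 5. In the LGR dasatinib comparison, 1 call became 12 with DESeq2, 0 without scaling beyond total counts, 0 with library sizes from non-targeting guides, 5 with the replicate block and 7 with all samples in 1 fit, and ranged from 0 to 22. The shares of all guides called in these fits were 2.06%, 0.0669%, 0.0629%, 0.958% and 1.17%, and 21.1% in the fit that gave 22. The 8 legacy dasatinib calls ranged from 0 to 23, where 15.6% of all guides were called, and were 12 with the replicate block, beside 2.43%. Fits that leave 1 sample in a group assume that it varies like the other group. Over all guides, DESeq2 called 355 lower and 1743 higher in the LGR dasatinib comparison against 4 and 97 with edgeR, and 369 and 2044 in the legacy one against 35 and 574. Same-numbered samples share only a number: no correlation of their deviations was larger than 0.00307. The cause of these shifts was not tested.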
